A study of Mus musculus with 9 samples.

Results

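The genes described here are 10 genes of the cytoplasmic dynein motor and of its partner complex dynactin: the light chain genes Dynll1, Dynll2, Dynlrb1, Dynlrb2 and Dynlt3, the heavy chain gene Dync1h1, the intermediate chain gene Dync1i2, the light intermediate chain genes Dync1li1 and Dync1li2, and Dctn1 of dynactin. They were taken from the gene table by symbol, and all 10 were found among its 38674 genes, each as 1 row. The list was drawn up with the values of these animals known: its genes were chosen by symbol, and Dynll2 was selected on its normalized counts, which differ widely between animals. Dynll2 is therefore described without a test. The other 9 genes were read from a test over all genes.

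Testicular RNA came from male C57BL/6 mice of 3 genotypes, with 3 samples each, called animals here: Pfn3+/+ (WT), Pfn3+/- (Het) and Pfn3-/- (KO). Pfn3 encodes a testis-specific profilin, an actin-binding protein. The mutant alleles are CRISPR/Cas9 deletions in the Pfn3 gene. According to the methods, males of 2 to 6 months served in the experiments of the study, while the age of each sequenced animal and the deletion line are not given in the sources used here. Each library was a QuantSeq 3′ library, in which reads start near the polyadenylated end of a transcript. The values are normalized counts, that is, gene read counts divided by 1 size factor per animal.

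Cytoplasmic dynein carries vesicles, organelles and proteins toward the minus ends of microtubules. Its heavy chain holds the motor domain, the intermediate and light intermediate chains join the motor to cargo and to dynactin, and the light chains of the LC8, roadblock and Tctex families bind the intermediate chains. Dynactin, together with adaptor proteins, makes the motor move over long distances. In developing spermatids, dynein is known for transport at the Golgi complex and along the manchette, the microtubule skirt that surrounds the elongating nucleus.

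The libraries held 3375546 to 4287335 reads on genes. Pfn3 itself had 592, 383 and 373 normalized counts in WT replicates 1 to 3, against 136, 339 and 326 in Het and 74.7, 215 and 279 in KO, so that every KO animal was below every WT animal and the KO libraries still held reads on the gene. WT replicate 1 stood apart from the other libraries. In it, 26.5% of 14165 genes (mean of 10 normalized counts or more) lay over 2-fold from the median animal, against 5.35% to 14.2% in the other 8 libraries. Among the 10 dynein and dynactin genes, 3 lay over 2-fold from the median animal in WT replicate 1. There were 2 in WT replicate 2, 2 in WT replicate 3 and 0 or 1 in each Het and KO animal. For these genes WT replicate 1 was thus little apart from the other WT animals by this count. For the comparison of KO with WT, log2 ratios of the 10 genes that WT replicate 1 moved by over 1.5 times are given with and without it. Markers of testicular cell types were present, with 4 of 5 Leydig cell, 5 of 5 Sertoli cell, 4 of 4 spermatocyte and 4 of 4 elongating spermatid genes in the table and none of them at 0 in all animals. Insl3 was not analysed here. The 3 epididymis markers (Lcn5, Lcn8 and Adam7) were at 0 in all 9 animals. The summed elongating spermatid markers ran from 233289 to 249362 normalized counts in WT, from 179063 to 214894 in Het and from 123388 to 199672 in KO. The round spermatid markers ran from 2283 to 3176 in WT and from 1539 to 2322 in KO, whereas the spermatocyte markers were higher, without overlap, in KO (5286 to 6433) than in WT (3630.1 to 4732). Of the 9 animals, KO replicate 2 had the lowest round and elongating spermatid sums and the highest spermatocyte and Sertoli cell (4443) sums. KO replicates 1 and 3 had 192069 and 199672 for elongating and 2153 and 2322 for round spermatid markers. The part of these differences in the values of the dynein genes was not tested. In whole testis, fewer cells of a type and less RNA per cell cannot be told apart.

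Dynll2 (ENSMUSG00000020483, chromosome 11 from 87979525 to 87987533, minus strand, GRCm38) encodes an LC8 light chain, a small dimeric hub protein that binds many partners besides dynein. It had 567 normalized counts in WT replicate 1, 5009.6 in WT replicate 2 and 5620.4 in WT replicate 3. The Het animals had 386, 508 and 449.8 normalized counts, and the KO animals had 456, 486 and 419. So 2 of the 9 animals, both WT, were high, and the other 7 lay close together, with WT replicate 1 just above the Het and KO animals. WT animals averaged 3732 ± 2758 (SD, n = 3), whereas Het animals averaged 448 ± 61.0 and KO animals 454 ± 33.3 normalized counts. The highest WT value was 9.91 times the lowest, while the corresponding ratio was 1.32 in Het and 1.16 in KO. Each Het and each KO animal was below each WT animal, a pattern that 6.49% of all genes tested had for Het and 10.5% had for KO. The log2 ratio of the genotypes, which is the log2 fold change as a difference of means on log2(normalized count + 1), was −2.47 for KO over WT, −2.50 for Het over WT and 0.02 for KO over Het. Without WT replicate 1 the first of these was −3.55 and the second was −3.57. These values describe the gene for which the list was partly chosen and carry no test. The reads behind them numbered 458 in WT replicate 1, 5193 in WT replicate 2, 5821 in WT replicate 3 and 409 to 546 in the other 6 animals. The cause of the difference was not tested.

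Dynll1 (ENSMUSG00000009013, chromosome 5 from 115297110 to 115300999, minus strand) encodes the other LC8 light chain. It had 748, 2815 and 906 normalized counts in WT, 2451, 2256 and 858 in Het and 1832, 1519 and 2177 in KO. Low and high animals occurred in both WT and Het, and the 3 genotypes overlapped. WT animals averaged 1489 ± 1151 (SD, n = 3), Het animals 1855 ± 869 and KO animals 1843 ± 329 normalized counts. Its KO/WT log2 ratio was 0.56 (95% interval from −0.68 to 1.79), and it was 0.19 without WT replicate 1 and 1.15 without WT replicate 2. WT replicate 2 was high for both LC8 genes, but WT replicate 3 was high for Dynll2 and low for Dynll1. No stretch of 50 bases was shared between the annotated transcripts of these 2 genes, and no other annotated gene lay within 5 kb of Dynll2. Near Dynll1, Coq5 (138 bases away, opposite strand) had 122 to 142 normalized counts in WT, 7.56, 134 and 133 in Het and 143, 67.7 and 139 in KO. Gm13830 (121 bases away, opposite strand) had 324, 111 and 157 in WT, 106, 156 and 162 in Het and 118, 90.9 and 132 in KO.

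**Figure D1:**
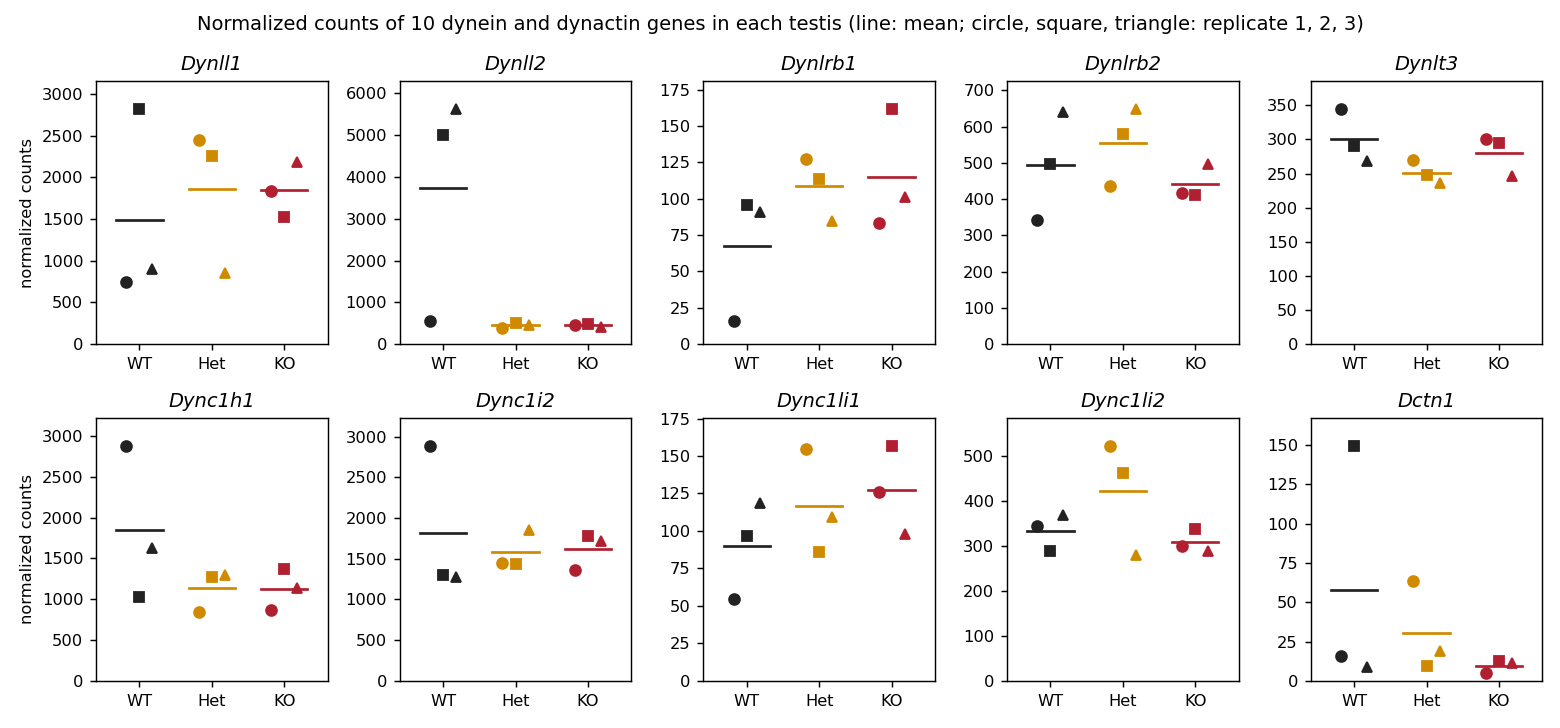
Normalized counts (vertical axes, each starting at 0) of the 10 genes in the testis of each animal, by genotype. Points are animals, with circle, square and triangle for replicates 1, 2 and 3, and lines are means of 3 animals. Dynll2 is high only in WT replicates 2 and 3, with 5009.6 and 5620.4 normalized counts.

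The roadblock light chains are encoded by Dynlrb1 and Dynlrb2, the latter known from testis and ciliated tissues. Dynlrb1 (ENSMUSG00000047459, chromosome 2 from 155236533 to 155250277, plus strand) had 16.1, 95.5 and 90.8 normalized counts in WT, 128, 114 and 84.7 in Het and 83.3, 162 and 101 in KO. WT replicate 1 was low, at 13 reads, and all other animals lay at 80 reads or more. The KO/WT log2 ratio was 1.07 (standard error, SE, 0.72, adjusted p = 0.643 by limma), and it was 0.25 without WT replicate 1. The Het/WT log2 ratio was 1.02 (SE 0.70, adjusted p = 0.779 by limma), and 0.20 without that library. Dynlrb2 (ENSMUSG00000034467, chromosome 8 from 116504974 to 116515915, plus strand) had 342, 498 and 641 normalized counts in WT, 437, 579 and 648 in Het and 417, 411 and 497.8 in KO. Its genotypes overlapped. For this gene the KO/WT log2 ratio was −0.12, with a 95% interval from −0.77 to 0.54, and −0.36 without WT replicate 1.

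Dynlt3 (ENSMUSG00000031176, chromosome X from 9654267 to 9663003, minus strand), a Tctex-type light chain, was the most even of the 10 genes over the 9 animals by the largest step between neighbouring animals. Its normalized counts were 344, 290.4 and 268 in WT, 269, 248 and 236 in Het and 301, 294 and 246 in KO. The KO/WT log2 ratio was −0.10 (95% interval from −0.57 to 0.37) and −0.00065 without WT replicate 1, and that of Het over WT was −0.26 (95% interval from −0.71 to 0.20).

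The motor subunit itself is encoded by Dync1h1 (ENSMUSG00000018707, chromosome 12 from 110601452 to 110666945, plus strand). It had 2877, 1033 and 1623 normalized counts in WT, 839, 1270.2 and 1293 in Het and 871, 1376 and 1138 in KO. WT replicate 1 was the highest of the 9 animals, WT replicate 3 was the next, and WT replicate 2 lay within the range of the Het and KO animals. Its KO/WT log2 ratio was −0.61 (SE 0.40, adjusted p = 0.643 by limma) and was −0.22 without WT replicate 1 and −0.96 without WT replicate 2. For KO over Het it was −0.01, with a 95% interval from −0.61 to 0.60. Gm17111, which overlaps Dync1h1 on the opposite strand, had 0 to 80.5 normalized counts, so reads of the 2 genes cannot be told apart there unless strand was used in counting, which is not given in the sources used here. The same holds for Dync1li2, overlapped by Gm45731 and K230015D01Rik (0 to 17.95 normalized counts), and for Dctn1, overlapped by Gm15624 (0 to 2.12). Genes named Gm35558, at or near Dync1h1 on the opposite strand, had 0 to 19.3. The gene 1700001K19Rik lies 743 bases from Dync1h1 on the opposite strand. It had 2260, 1622 and 1377 in WT, 1026 to 1384 in Het and 769 to 1467 in KO. On the same strand, Terb1 (3672 bases from Dync1li2) had 76.4 to 181, and 1700003E16Rik (2975 bases from Dctn1) had 9.66 to 37.5.

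Dync1i2 (ENSMUSG00000027012, chromosome 2 from 71211706 to 71263303, plus strand) encodes the intermediate chain that holds the light chains and binds dynactin. It had 2885, 1303 and 1272 normalized counts in WT, 1451, 1430.3 and 1849 in Het and 1361, 1777 and 1716 in KO. WT replicate 1 was again the highest animal, and WT replicates 2 and 3 were the lowest. The KO/WT log2 ratio was −0.07 with all animals and 0.32 without WT replicate 1 (adjusted p = 0.585 by limma). It was also above 0, at 0.05, without KO replicate 1.

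The light intermediate chains link the motor to adaptor proteins, and the genotypes overlapped for both of them. Dync1li1 (ENSMUSG00000032435, chromosome 9 from 114688790 to 114724302, plus strand) had 54.5, 96.5 and 119 normalized counts in WT, 155, 85.7 and 109 in Het and 126, 157 and 98.3 in KO, with WT replicate 1 the lowest animal. Dync1li2 (ENSMUSG00000035770, chromosome 8 from 104417680 to 104443047, minus strand) had 345, 288 and 369 in WT, 523, 464 and 280.4 in Het and 301, 339 and 290.5 in KO, with Het replicates 1 and 2 above the rest. The KO/WT log2 ratios were 0.54 (95% interval from −0.32 to 1.40) for Dync1li1 and −0.10 (95% interval from −0.56 to 0.35) for Dync1li2. Without WT replicate 1 the value of Dync1li1 was 0.22. For Dync1li2 the Het/WT value was 0.30 (95% interval from −0.40 to 0.99).

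Dctn1 (ENSMUSG00000031865, chromosome 6 from 83165920 to 83200117, plus strand) encodes the large dynactin subunit that contacts both the intermediate chain and the microtubule. It had 16.1, 149.5 and 8.69 normalized counts in WT, 63.3, 9.31 and 19.0 in Het and 5.15, 12.6 and 11.6 in KO. WT replicate 2 and Het replicate 1 were high, and the other 7 animals held 6 to 18 reads, near the level at which single reads matter. For Dctn1 the KO/WT log2 ratio was −1.52 (SE 1.05, adjusted p = 0.643 by limma), with a 95% interval from −4.07 to 1.02. On the recovered reads edgeR and DESeq2 both gave −2.55 (adjusted p = 0.638 and 0.495). The limma value was −0.34 without WT replicate 2 (range −2.32 to −0.34 over the animals left out in turn).

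Across the genome, limma was run on each pair of genotypes, on genes that reached 10 normalized counts in 3 or more of the 6 animals. Genes were called where the adjusted p-value was under 0.05 and the log2 ratio was above 1.5 or below −1.5. All 10 dynein and dynactin genes passed this filter in the 3 comparisons. Between KO and WT, 0 of the 9 genes tested were called by limma (0.0352% of all 14223 genes were), and 0 had an unadjusted p-value under 0.05 (8.07% of all genes). None of the 9 had KO and WT animals without overlap, a pattern seen with KO above in 9.41% and with KO below in 10.5% of all genes. Of the 9 genes, 3 had a positive and 6 a negative log2 ratio, and their median was −0.10, beside 0.02 for all genes tested. Without WT replicate 1 these counts were 4 and 5, with a median of −0.00065, beside −0.03 for all genes. Between Het and WT, 0 of 9 were called (0% of 14216 genes), 0 had an unadjusted p-value under 0.05 (3.34% of all genes, 1.46% higher and 1.89% lower in Het), and the median log2 ratio was 0.20, beside 0.01 for all genes. Without WT replicate 1 this median was 0.07, beside −0.03 for all genes. Between KO and Het, 0 of 9 were called (0.0558% of 14343 genes), 0 had an unadjusted p-value under 0.05 (3.56% of all genes, 1.74% higher and 1.82% lower in KO), and the median was 0.04, beside −0.003 for all genes. Groups without overlap were also found for 0 of 9 genes in these comparisons, which between Het and WT occurred with Het above in 6.76% and below in 6.49% of all genes, and between KO and Het with KO above in 5.12% and below in 4.90%. Tests on the recovered reads with edgeR and DESeq2 called 0 of the 9 genes in each comparison as well. These tests do not show that the 9 genes were alike between genotypes. Intervals for KO over WT were widest for Dctn1, Dynlrb1 and Dynll1. Those of Dync1h1 (−1.57 to 0.36) and Dync1i2 (−0.92 to 0.78) were wide as well. The comparisons with WT share the same WT animals, and those with KO the same KO animals.

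**Figure D2:**
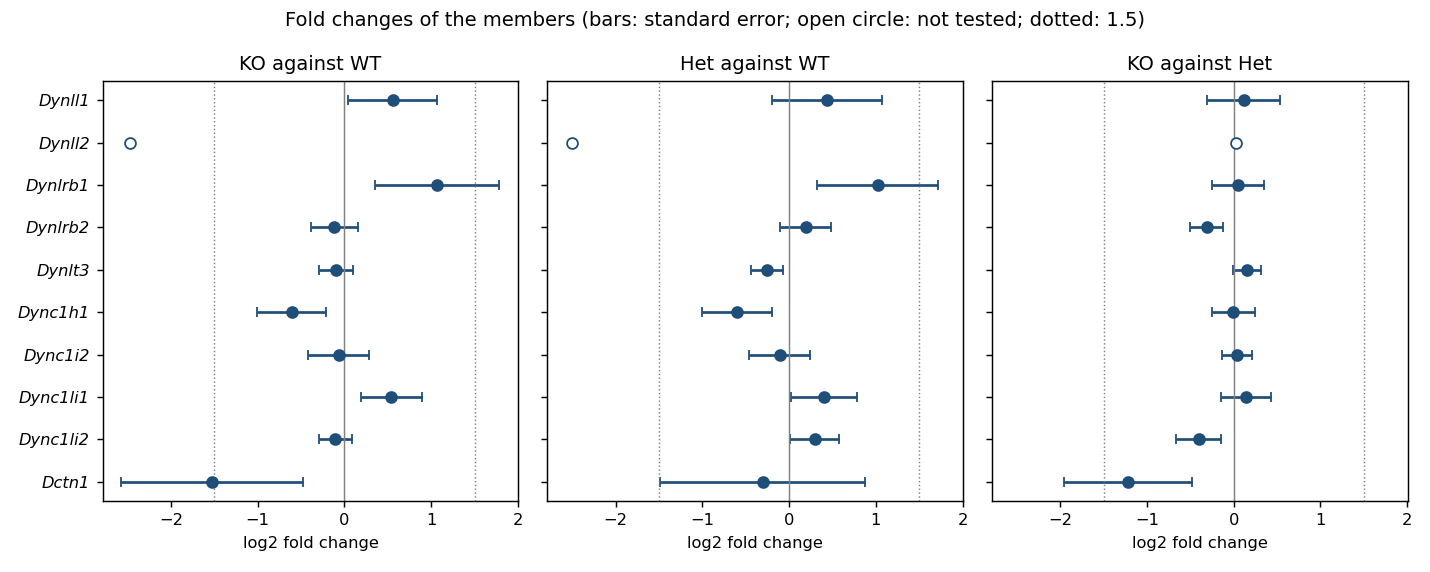
Log2 ratios (horizontal axes, log2 fold change) of the 10 genes in the 3 comparisons of genotypes, with bars for the standard error and dotted lines at 1.5 in either direction. Of the 9 genes with bars, Dctn1 in KO against WT is the only one whose value passes a dotted line, at −1.52 with a standard error of 1.05, and Dynll2 (open circle) carries no test.

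Dynll2 was not alone in falling into separate levels. For each of these 14165 genes, the 9 animals were put in order and the largest step between neighbours was taken on log2(normalized count + 1). For Dynll2 this step was 3.14, between WT replicate 1 and WT replicate 2, and 9.11% of all genes had a step at least as large. Dynlrb1 had a step of 2.30, with WT replicate 1 alone below it, and Dctn1 a step of 1.68. The steps of the remaining 7 genes ran from 0.19 for Dynlt3 to 0.83 for Dync1h1. Leaving out Dynll2, whose steps led to its choice, a step over 4-fold was found in 1 of 9 genes (Dynlrb1), beside 16.2% of all genes. WT replicate 1 was the lowest of the 9 animals in 4 of the 10 genes (27.9% of all genes) and the highest in 3 (26.1% of all genes).

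**Figure D3:**
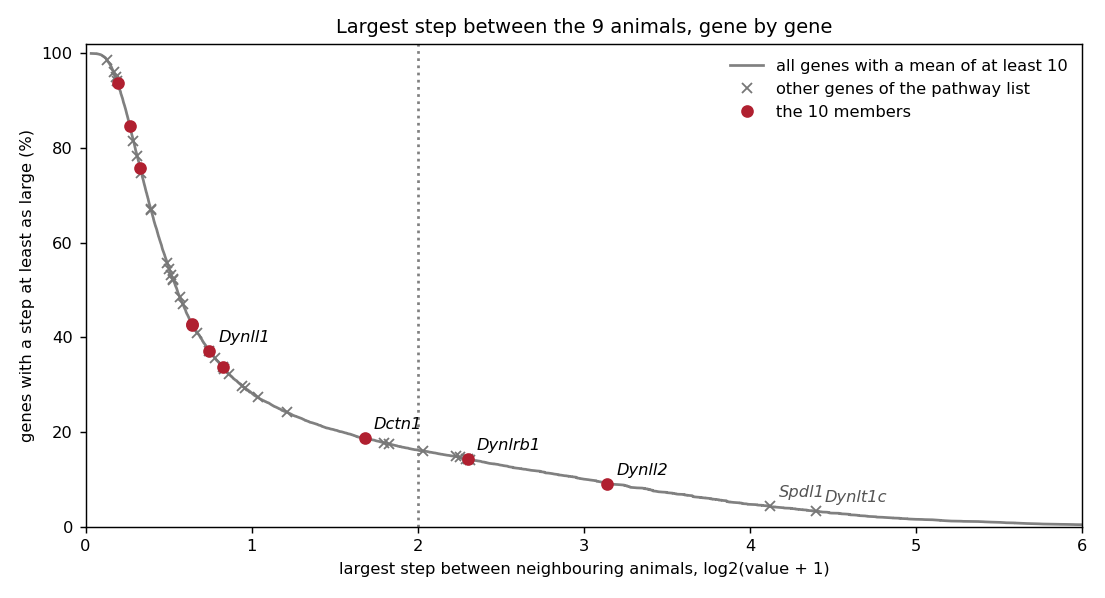
Percentage of genes (vertical axis) with a largest step between neighbouring animals at least as large as the value on the horizontal axis, in log2(normalized count + 1). The grey line covers 14165 genes, red circles are the 10 genes, crosses are the other genes of the pathway list, and the dotted line marks 4-fold. Dynll2 lies at 3.14 and 9.11%.

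The genes with the pattern nearest to that of Dynll2 were sought by the root mean square difference of centred log2(normalized count + 1) over the 9 animals, among 14164 genes. The nearest were Vps11 (0.42), Pes1 (0.50), Gpank1 (0.60), Ergic2 (0.65) and Pnpla2 (0.79), where the median gene was at 1.54. Vps11, on chromosome 9, had 11.1, 95.5 and 75.3 normalized counts in WT, 3.78 to 7.41 in Het and 2.58 to 6.77 in KO. Ergic2, on chromosome 6, had 163, 1207 and 1233 in WT, 214 to 319.6 in Het and 197 to 336 in KO. In all 5, WT replicates 2 and 3 were the highest of the 9 animals. The 5 genes lie on 5 chromosomes, of which 1, that of Pes1, is also that of Dynll2. In 8 of the 14165 genes, Dynll2 among them, WT replicates 2 and 3 stood more than 4-fold above all other animals.

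**Figure D4:**
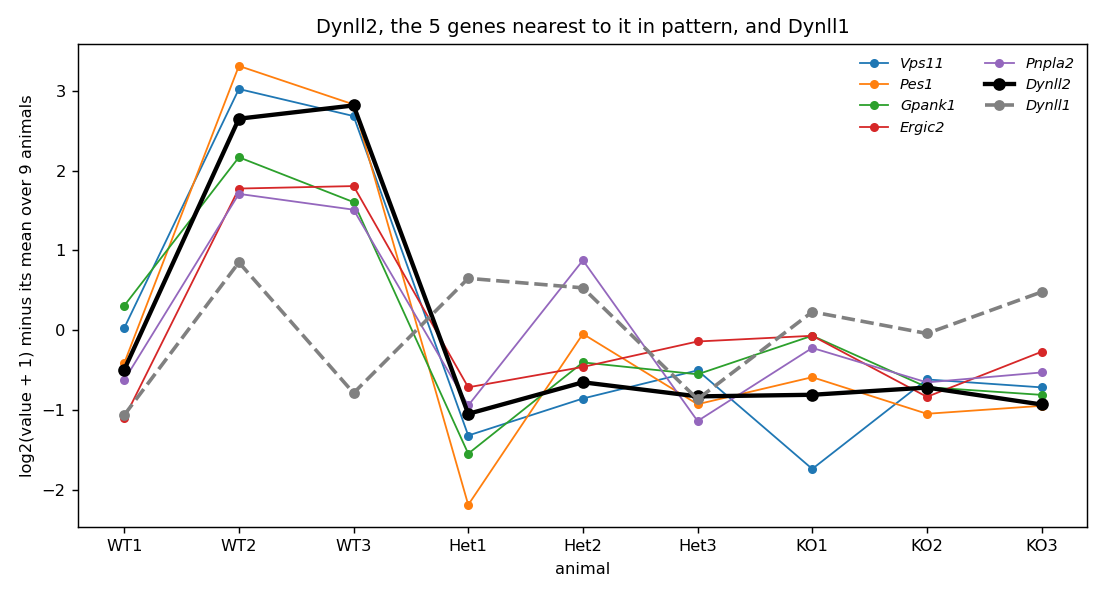
Log2(normalized count + 1) minus its mean over the 9 animals (vertical axis), by animal, for Dynll2 (black), the 5 genes nearest to it (colours) and Dynll1 (grey, dashed). Lines only join the points of a gene. WT replicates 2 and 3 are the highest animals in Dynll2 and in the 5 genes, while Dynll1 is low in WT replicate 3, at 906 normalized counts.

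A longer list of 50 genes covered the subunits of cytoplasmic dynein 1, of dynein 2 (the motor of intraflagellar transport), of dynactin, and their regulators and cargo adaptors. Of these, 49 were in the table, and Ninl was not analysed here. Leaving out Dynll2, 45 genes were tested between KO and WT and 0 were called by limma (0.0352% of all genes). At an unadjusted p-value under 0.05, 0 were higher and 2 lower in KO (3.04% and 5.03% of all genes). These were Wdr60, an intermediate chain of dynein 2, and Capzb, the capping protein subunit at the end of the dynactin filament. Wdr60 had 613, 406 and 521 normalized counts in WT, 166, 397 and 132 in Het and 223, 142 and 158 in KO, and its KO/WT log2 ratio was −1.56 (SE 0.26, adjusted p = 0.349 by limma). DESeq2 on the recovered reads called it, with an adjusted p-value of 0.000927, while the adjusted p-values over the other settings ran up to 0.814. Capzb had 1138, 1107 and 1069.8 normalized counts in WT, 390.2, 1056 and 577 in Het and 593, 453 and 584 in KO, with a log2 ratio of −1.03 (SE 0.18, adjusted p = 0.349 by limma). DESeq2 gave it the adjusted p-value of 0.000927 as well, at a log2 ratio of −1.01 that is short of the cutoff, and over the other settings the adjusted p-values ran up to 0.788. For both genes each KO animal was below each WT animal, and 1 Het animal, replicate 2, lay near the WT animals.

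Taken by complex, the dynein 1 genes (13 tested) had a median KO/WT log2 ratio of 0.54, with 7 higher and 6 lower, the dynein 2 genes (5 tested) had 0.52, with 3 higher and 2 lower, and the dynactin genes (12 tested) had −0.22, with 3 higher and 9 lower. In 5 of the 12 dynactin genes (Dctn3, Actr1a, Actr1b, Actr10 and Capzb) each KO animal was below each WT animal, beside 10.5% of all genes. In 1, Capza2, each KO animal was above, beside 9.41% of all genes. Some gaps were narrow: the highest KO and lowest WT values were 325 and 329 for Dctn3 and 119 and 123 for Actr1b. They were 593 and 1069.8 for Capzb, the only dynactin gene with an unadjusted p-value under 0.05 by limma. Over the 45 list genes tested, 7 were below and 4 above in this way. Without WT replicate 1 the medians were 0.12 for dynein 1, −0.17 for dynein 2, with 2 higher and 3 lower, and −0.16 for dynactin, again with 3 higher and 9 lower. Of the dynein 1 genes that were higher, 3 are the copies Dynlt1a, Dynlt1b and Dynlt1f, whose transcripts share sequence. The 4 regulators had a median of 0.08 and the 11 adaptors −0.06, and without WT replicate 1 these were 0.13 and 0.07. Between Het and WT, 44 genes were tested and 0 called by limma (0% of all genes). Of them, 1 was lower (1.89% of all genes) and 0 higher (1.46%) at an unadjusted p-value under 0.05. The lower gene was Wdr60 (log2 ratio −1.29, adjusted p = 0.779 by limma). Between KO and Het, 45 were tested and 0 called by limma (0.0558% of all genes). At an unadjusted p-value under 0.05, 2 were higher (1.74% of all genes) and 0 lower (1.82%). The higher genes were Hook3, a cargo adaptor, and Dync2h1, the heavy chain of dynein 2. Hook3 had 105, 119 and 113 normalized counts in KO against 82.2, 75.4 and 84.7 in Het (log2 ratio 0.47, adjusted p = 0.973 by limma). The log2 ratio of Dync2h1 was 0.57 (adjusted p = 0.973 by limma).

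**Figure D5:**
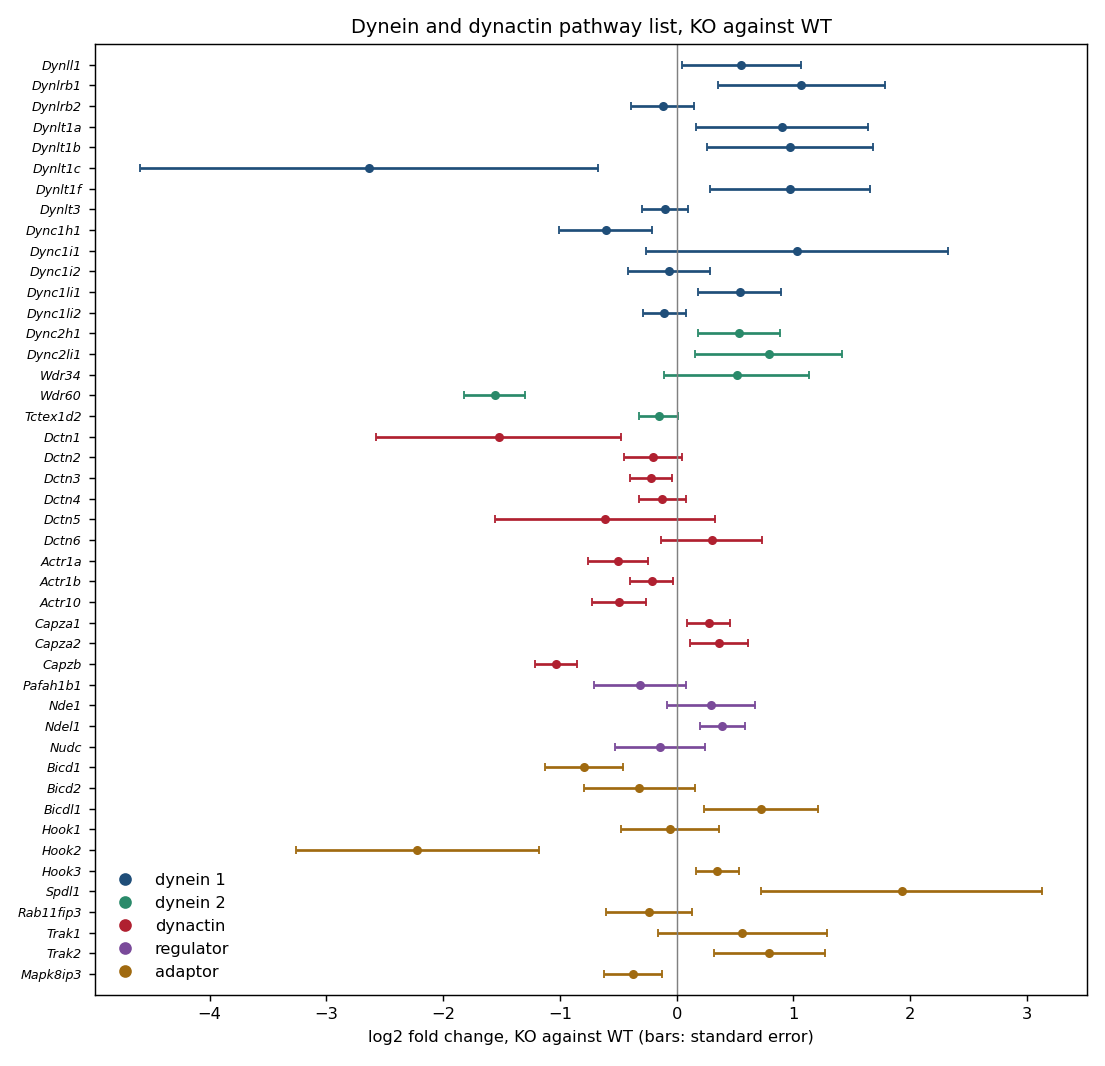
KO/WT log2 ratios (horizontal axis, log2 fold change) of the 45 genes tested from the pathway list without Dynll2, coloured by complex, with bars for the standard error. Wdr60 lies at −1.56 and Capzb at −1.03, and Dynlt1c, at −2.63, has the widest bar.

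The Tctex-type light chains of the Dynlt1 family have copies that share sequence, so their counts may be uncertain. Between 12.6% and 80.9% of the 50-base stretches in the transcripts of one copy also occurred in another. These stretches cover whole annotated transcripts, not only the 3′ ends that were read, and an effect on the counts was not tested. Dynlt1a had 243, 1699.8 and 1319.9 normalized counts in WT and 1161 to 2194 in Het and KO. Dynlt1c had 7.43, 1489 and 1139 in WT, 20.8, 1291 and 26.5 in Het and 38.7, 53.2 and 26.8 in KO, so that WT replicates 2 and 3 and Het replicate 2 were high and the other 6 animals low. Its KO/WT log2 ratio was −2.63 (SE 1.96, adjusted p = 0.650 by limma). It was called without WT replicate 1, at −5.06 (adjusted p = 0.0104 by limma), and by DESeq2 with all animals, at −4.45 (adjusted p = 0.0256), while edgeR gave −4.45 with an adjusted p of 0.617. The highest adjusted p-value over the settings was 0.814. Summed over Dynlt1a, Dynlt1b, Dynlt1c and Dynlt1f, WT replicate 1 had 732 normalized counts and the other 8 animals had 3552 to 6549. Steps over 4-fold were found in 9 of the 45 pathway list genes other than Dynll2 whose mean was 10 normalized counts or more, beside 16.2% of all genes. In 5 of these 9, among them Dynlt1a, Dynlt1b and Dynlt1f, WT replicate 1 alone lay below the step, beside 28.4% of all genes with such a step. The 9 also hold Dynlt1c, and these copies share sequence, so they do not count as separate genes here.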

How the data were processed

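Per the labels and the study's methods, the authors trimmed reads with Trim Galore 0.4.5, aligned them with HISAT2 2.1 to GRCm38, counted genes with StringTie 1.3.3 and removed pseudogenes. The deposited numbers are signal values, obtained as counts over a DESeq2 size factor for each sample. All nonzero values (100%) were whole multiples of the smallest nonzero value in the sample, within a tolerance of 0.01. The counts before division could thus be recovered. They are gene counts prepared from the StringTie output, called reads here, and 3 of them were worth 2.58 to 3.71 normalized counts. The labels number the samples within a genotype and do not state separate animals. They are called animals here. The p-values set differences of means against the variation between these samples, which limma moderates with that of other genes.

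R 4.3.3 and limma 3.58.1 (trended eBayes, pseudocount 1) gave the comparisons, each fitted on the 2 genotypes concerned, with Benjamini-Hochberg adjustment over all genes tested and the cutoffs of the study's methods. Alternatives were edgeR 4.0.16 and DESeq2 1.42.0 on recovered reads, pseudocounts of 0.5 and 5, no filter, a minimum of 50, TMM scaling, 1 fit of all 9 animals, a replicate block, and leaving out each animal. The fitting code was tested on simulated KO and WT data with 200 genes changed 8-fold. There limma recovered 93.5% with 7 false calls, edgeR 95.5% with 5 and DESeq2 97% with 26. No simulated library was set apart as WT replicate 1 is.

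The members and lists were chosen with earlier results of these data known. The named genes were the members, pathway list genes with an unadjusted p-value under 0.05 (at most 3 per direction), paralogs, annotated neighbours within 5 kb and the 5 genes nearest to Dynll2. Dynlt1c was singled out after its values were seen. Positions are from GENCODE M21.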

Additional observations from a re-analysis of the deposited data

How the results depend on the processing

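For the 9 tested genes, 238 of 240 log2 ratios kept their direction under the alternatives that kept every animal, and none was called. The exceptions were Dynll1 for KO over Het with DESeq2 (−0.0040) and Dync1h1 for KO over Het with edgeR (0.016). Leaving out 1 animal turned 20 of 162 log2 ratios and called none. The ranges for KO over WT were −0.36 to 0.095 for Dynlrb2 and −0.27 to 0.32 for Dync1i2. For Het over WT they were −0.046 to 0.41 for Dynlrb2, −0.31 to 0.28 for Dync1i2 and −1.10 to 0.88 for Dctn1. For KO over Het they were −0.37 to 0.39 for Dynll1, −0.22 to 0.25 for Dynlrb1, −0.21 to 0.17 for Dync1h1, −0.035 to 0.16 for Dync1i2 and −0.058 to 0.37 for Dync1li1. Adjusted p-values of the 9 genes ran from 0.495 to 0.999 for KO over WT over all settings.

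Among all genes, the 5 calls between KO and WT became 2 with a minimum of 50, 100 with DESeq2, 3 in 1 fit of all 9 animals, 0 with the replicate block and 0 to 49 with 1 animal left out (49 without WT replicate 1). The 0 calls between Het and WT became 2 with a pseudocount of 5, 3 with no filter, 1 with a minimum of 50, 1 with TMM scaling, 31 with DESeq2, 3 in 1 fit of all 9 animals and 0 to 3 with 1 animal left out (3 without Het replicate 2). The 8 calls between KO and Het became 4 with a minimum of 50, 38 with DESeq2, 4 in 1 fit of all 9 animals, 0 with the replicate block and 0 to 39 with 1 animal left out (39 without Het replicate 2). The 0 pathway list calls between KO and WT became 2 with DESeq2 (Wdr60 and Dynlt1c) and 0 to 1 with 1 animal left out (Dynlt1c without WT replicate 1). The cause of these differences was not tested. Same-numbered samples did not deviate together (correlations of −0.14 to 0.19), so the block stands for a number only. The Dynll2 step ran from 3.13 to 3.31 over its alternatives, and 2 of its 5 nearest genes (Vps11 and Pes1) were also nearest by Pearson correlation. With 3 animals per genotype, the wide intervals of Dctn1, Dynlrb1 and Dynll1 and the 6 to 18 reads of Dctn1 in most animals limit what can be said of them.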
